A study of Mus musculus with 6 samples.

Results

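The insulin-like growth factor (IGF) system of the mouse aortic wall was followed through 10 genes: the ligands Igf1 and Igf2, the receptors Igf1r and Igf2r, and the binding proteins Igfbp2, Igfbp3, Igfbp4, Igfbp5, Igfbp6 and Igfbp7. They were chosen by symbol, and each was found among the 31055 features of a single-cell RNA sequencing (scRNAseq) matrix of the aortic root and ascending aorta. The labels list 6 mice at 16 weeks of age. The 4 controls were Tgfbr1+/+, and 2 of them also carried Wnt2CRE and EGFP-L10a, a conditional tracer that this Cre switches on in cells of the cardiac neural crest lineage. The 2 Loeys-Dietz syndrome (LDS) mice were Tgfbr1M318R/+, a heterozygous missense change in a TGF-β receptor that leads to aneurysms of the aortic root. By the study's methods all were females on a 129 background, and each gave 1 library from sorted, living nucleated cells of digested tissue. The number from 1 to 6 at the end of a cell barcode separates the libraries. No label or file says which number belongs to which mouse. The genotypes could therefore not be set against each other, and no p-value was computed, since the 6 libraries mix 2 genotypes. Each value is that of a library, or the median with the lowest and highest library. A difference that has the same direction in all 6 libraries has that direction in both genotypes.

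IGF1 and IGF2 are secreted growth factors. Both activate the tyrosine kinase receptor IGF1R, which signals through insulin receptor substrates, phosphatidylinositol 3-kinase and AKT to favour growth and survival, and IGF1 is a known survival factor for vascular smooth muscle cells (VSMCs). IGF2R, the cation-independent mannose-6-phosphate receptor, takes IGF2 to lysosomes and sorts lysosomal enzymes. The binding proteins hold IGFs in plasma and matrix, extend their life, block or deliver them, and are cut by proteases such as PAPP-A, HTRA1 and HTRA3. IGFBP7 binds IGFs only weakly and is better known as a matrix and basement membrane protein.

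Each member is a protein-coding gene, placed here by the mm10 annotation. Igf1 lies at chr10:87858265-87937042 (plus strand), Igf2 at chr7:142650766-142666816 (minus), Igf1r at chr7:67952827-68233668 (plus) and Igf2r at chr17:12682406-12769664 (minus). Igfbp3 lies at chr11:7206086-7213923 (minus), Igfbp4 at chr11:99041244-99054392 (plus), Igfbp6 at chr15:102144362-102149511 (plus) and Igfbp7 at chr5:77349240-77408041 (minus). Igfbp2 (chr1:72824503-72852474, plus) and Igfbp5 (chr1:72857932-72874884, minus) are neighbours that point at each other, with 5457 bases between their ends. They are shown first because the cell classes below used them in opposite ways. The RefSeq sequence of the 250 bases before the start of each, the more upstream of 2 starts for Igfbp2, follows (GRCm38.p6, 5′ to 3′ on the gene's strand), with that of Igfbp4 as the binding protein with the most unique molecular identifiers (UMIs, each 1 captured transcript) among those higher in fibroblasts. Capitals mark matches, on either strand, to TATAAA (core of the TATA box), GGGCGG (known as the GC box) or the CCAAT box.
Igfbp2, chr1:72824230-72824479, plus strand: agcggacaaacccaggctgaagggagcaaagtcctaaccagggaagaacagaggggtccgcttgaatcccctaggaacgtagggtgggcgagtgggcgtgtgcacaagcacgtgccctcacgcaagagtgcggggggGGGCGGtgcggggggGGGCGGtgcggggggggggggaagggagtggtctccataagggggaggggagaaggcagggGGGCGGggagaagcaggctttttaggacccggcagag
Igfbp5, chr1:72874866-72875115, minus strand: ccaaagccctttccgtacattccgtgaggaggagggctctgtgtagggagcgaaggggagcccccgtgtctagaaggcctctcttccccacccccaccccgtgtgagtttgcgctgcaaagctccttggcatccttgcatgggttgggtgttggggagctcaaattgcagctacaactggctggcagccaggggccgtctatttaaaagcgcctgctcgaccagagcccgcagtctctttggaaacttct
Igfbp4, chr11:99040994-99041243, plus strand: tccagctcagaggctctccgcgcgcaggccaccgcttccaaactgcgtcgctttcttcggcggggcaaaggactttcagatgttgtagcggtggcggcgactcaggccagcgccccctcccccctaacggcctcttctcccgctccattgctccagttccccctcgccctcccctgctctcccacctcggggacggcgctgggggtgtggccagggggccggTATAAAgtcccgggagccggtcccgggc
The Igfbp2 window held 3 GGGCGG matches and 14 CpG dinucleotides, and that of Igfbp5 held no match to the motifs searched and 10 CpGs. The Igfbp4 window held TATAAA with its first base 28 bases before the start. Among 32851 promoters of this length, 12.4% held TATAAA, 32.7% GGGCGG and 33.9% CCAAT, and the median promoter had 6 CpGs. A match is a match of letters and was not tested as a binding site.

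After the cell filter 24972 of 30716 barcodes were kept, 1863 to 6395 per library, with 18218282 to 38105145 UMIs and a median of 5572 to 9838 UMIs per cell. Clustering named 10078 VSMC-like, 13120 fibroblast-like, 505 endothelial-like and 443 leukocyte-like cells by marker genes, and the IGF and pathway genes described here were left out of the genes used to cluster. The sum of 7 VSMC markers (Myh11, Acta2, Tagln and others) was 67349 UMIs per 1000000 UMIs of the summed cells (CPM) in VSMC-like and 1222 CPM in fibroblast-like cells. Fibroblast markers without the 2 type I collagen genes summed to 21558 CPM in fibroblast-like and 354 CPM in VSMC-like cells, 1.62% of the fibroblast level (0.755 to 2.97% by library). Another 652 cells, 1.26 to 3.65% of each library, lay in subclusters whose summed UMIs carried markers of both lists, and were set aside. Libraries 1, 3, 4 and 5 shared 638 to 1101 barcode sequences per pair, and libraries 2 and 6 shared 244. Other pairs shared 2 to 8, and among kept cells no pair shared more than 13. Leaving out the 1590 kept cells whose sequence occurs in another library ended 1 call of a gene described below (Igfbp7 in endothelial cells) and brought Igfbp4 past the threshold in 2 comparisons, as given there.

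Igf1 and 4 of the 6 binding proteins were higher in fibroblasts, whereas Igfbp2 was higher in VSMCs. Both receptors stood lower in fibroblasts in every library without passing the threshold. For each library the UMIs of a class were summed, and the log2 ratio of fibroblast-like over VSMC-like cells was taken. A gene was called when the ratio had 1 sign in every library and its median was at least 1 in size. By this rule 21.6% of 8170 genes with a mean of at least 10 CPM were called, 12.4% higher and 9.16% lower in fibroblast-like cells. Of the 9 IGF genes that reached 10 CPM, Igf1, Igfbp3, Igfbp4, Igfbp5 and Igfbp6 were called higher and Igfbp2 lower. Igfbp2, Igfbp3 and Igfbp6 reached 10 CPM only through the class in which they were high, so this count is a description.

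Igf1 had 254 to 586 CPM in fibroblast-like cells (median 468) and 1.14 to 30.3 CPM in VSMC-like cells (median 12.01), and the classes did not overlap. The median log2 ratio was 5.15 (4.19 to 7.73, 6 of 6 libraries higher). At least 1 Igf1 UMI was seen in 68.0% of fibroblast-like cells (95% exact binomial interval 67.2 to 68.8%) and 4.58% of VSMC-like cells (4.18 to 5.01%). At an equal depth of 3000 UMIs a cell they fell to 55.3% and 2.31%. Such intervals cover counting error only. The level in VSMC-like cells was 2.85% of that in fibroblast-like cells (0.449 to 5.49%), a range that overlaps that of the fibroblast markers without collagens. The part of free or carried-over RNA in the VSMC value was not tested.

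Igf2 was close to undetected, with 24 UMIs in the 24972 cells, 16 of them in fibroblast-like, 4 in VSMC-like, 3 in endothelial-like and 0 in leukocyte-like cells, and never more than 1 in a cell. A count of 0 in 443 leukocyte-like cells allows a share of cells with a UMI of up to 0.677%, taken as 3 counts of the total. The low level cannot be read as absence of the transcript. The annotation holds a readthrough gene on the same strand, Gm49394, which shares 62.8% of the exonic bases of Igf2 and 99.4% of those at its 3′ end, where the assay reads, and Cell Ranger leaves out reads that match more than 1 gene. Gm49394 itself had 0 UMIs. The maternally expressed neighbour H19 had 68 UMIs, 49 of them in fibroblast-like cells, and the antisense transcript Igf2os had 2.

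Igf1r, the signalling receptor, had 60.7 to 101 CPM in VSMC-like cells (median 85.8) and 29.7 to 53.2 CPM in fibroblast-like cells (median 44.1). The classes did not overlap, and the median log2 ratio of -0.97 (-1.15 to -0.79, 6 of 6 lower) stood just under the threshold. Without library 3, 4 or 5 it was -1.03 and was called. Igf2r had 92.3 to 142 CPM in VSMC-like and 73.1 to 106 CPM in fibroblast-like cells. The classes overlapped across libraries, though within each of the 6 libraries the fibroblast value was lower (median log2 ratio -0.40, -0.83 to -0.04). Endothelial-like cells had medians of 52.7 CPM of Igf1r and 96.8 CPM of Igf2r, and leukocyte-like cells had 19.3 and 15.3 CPM.

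**Figure D1:**
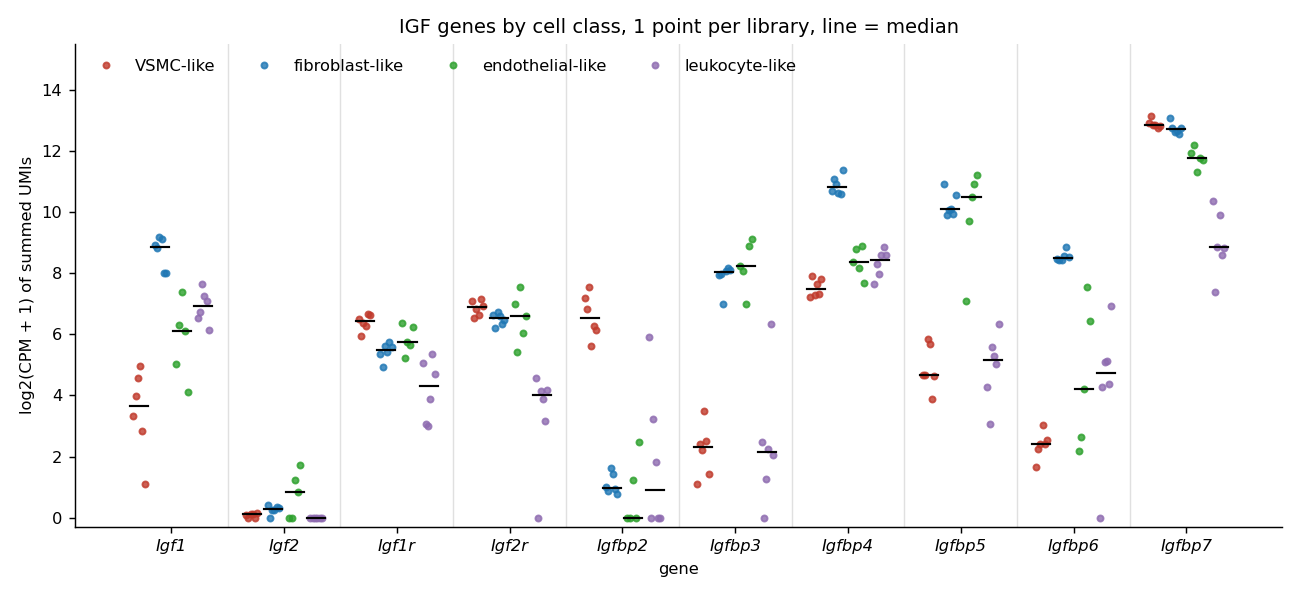
Level of each gene in VSMC-like, fibroblast-like, endothelial-like and leukocyte-like cells as log2(CPM + 1) of the UMIs summed in each library, with 1 point per library holding at least 20 cells of the class and a line at the median. Igf1, Igfbp3, Igfbp4, Igfbp5 and Igfbp6 of fibroblast-like cells lie above VSMC-like cells without overlap, Igfbp2 lies above in VSMC-like cells (median 94.1 CPM against 0.94 CPM in fibroblast-like cells), with 1 leukocyte-like point at 59.7 CPM, and Igfbp7 of the 2 classes overlaps.

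Igfbp2 had 48.5 to 187 CPM in VSMC-like cells (median 94.1) and 0.72 to 2.08 CPM in fibroblast-like cells (median 0.94). The median log2 ratio was -6.46 (-7.12 to -4.80, 6 of 6 lower). The fibroblast level was 1.08% of the VSMC level (0.689 to 3.52%), beside 1.92% (1.44 to 2.71%) for the sum of the VSMC markers. Its neighbour Igfbp5 ran the other way. It had 960 to 1946 CPM in fibroblast-like cells (median 1084) and 13.7 to 56.5 CPM in VSMC-like cells (median 24.5), with a median log2 ratio of 5.63 (4.26 to 6.32).

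Igfbp4, a binding protein that is released from IGFs when PAPP-A cuts it, had 1558 to 2684 CPM in fibroblast-like cells (median 1796) and 147 to 241 CPM in VSMC-like cells (median 179). The log2 ratio of 3.39 varied least among the called members (3.00 to 3.65). The VSMC level was 9.57% of the fibroblast level (7.96 to 12.48%), above the range of the collagen-free fibroblast markers in each library. Igfbp3, the main carrier of IGF1 in plasma, had 126 to 289 CPM in fibroblast-like cells (median 260) and 1.13 to 10.3 CPM in VSMC-like cells (median 3.95). Its median log2 ratio was 5.89 (4.71 to 7.70). Igfbp6, which prefers IGF2, had 345 to 458 CPM in fibroblast-like cells (median 358) and 2.12 to 7.15 CPM in VSMC-like cells (median 4.35), a log2 ratio of 6.42 (5.70 to 7.33). For Igfbp3, Igfbp5 and Igfbp6 the VSMC level was 1.68%, 2.07% and 1.16% of the fibroblast level, and their ranges overlapped that of the fibroblast markers.

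Igfbp7 was high in both classes, with 6816 to 9139 CPM in VSMC-like cells (median 7416) and 5980 to 8728 CPM in fibroblast-like cells (median 6695), which overlapped. The median log2 ratio was -0.19 (-0.41 to 0.19, 5 of 6 libraries lower). Only 4 of 10078 VSMC-like and 35 of 13120 fibroblast-like cells held no Igfbp7 UMI. The end of Igfbp7 overlaps that of Polr2b on the opposite strand, which counting by strand keeps apart. Because a 3′ UMI is 1 transcript end whatever the length of the gene, the UMIs of the binding proteins were also summed. Igfbp7 was 95.9% of the sum in VSMC-like cells (94.8 to 96.4%), followed by Igfbp4 with 2.39% and Igfbp2 with 1.13%. In fibroblast-like cells Igfbp7 was 64.7% (58.8 to 67.6%), Igfbp4 18.3%, Igfbp5 11.01%, Igfbp6 3.38% and Igfbp3 2.35%. The 6 binding proteins together reached 7073 to 9526 CPM in VSMC-like and 9267 to 12904 CPM in fibroblast-like cells.

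**Figure D2:**
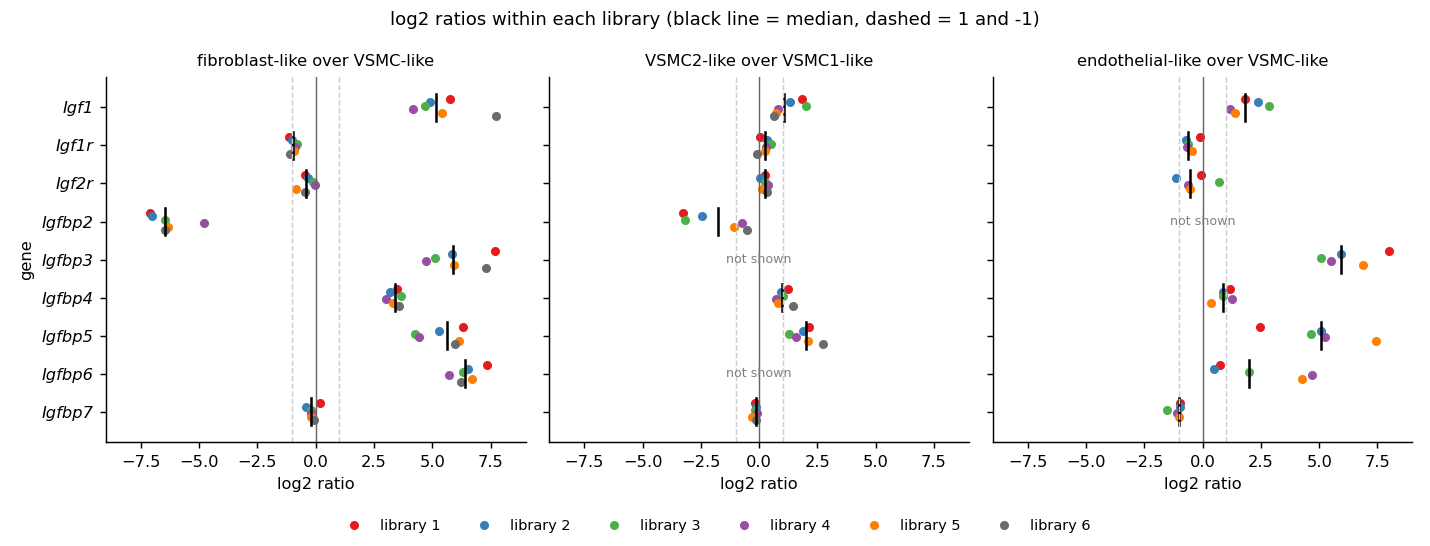
log2 ratio of each gene within each library, for fibroblast-like over VSMC-like, VSMC2-like over VSMC1-like and endothelial-like over VSMC-like cells, with 1 coloured point per library, a black line at the median, and dashed lines at the threshold of 1 and -1. Genes under 10 CPM and Igfbp2 in endothelial-like cells, which rests on 3 UMIs, are not shown. Points of 1 gene lie on 1 side of 0 in the first panel for each gene but Igfbp7.

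Around the 10 genes, 43 genes of the pathway were listed, 28 of which reached 10 CPM in this comparison. Of these, 7 were called higher and 3 lower in fibroblast-like cells, beside 12.4% and 9.16% of all genes. Their median log2 ratio was 0.35 against 0.01 for all genes. Stc2, a stanniocalcin that inhibits the protease PAPP-A, had the largest ratio (2.87), followed by the imprinted non-coding RNA Meg3 (2.55) and Htra3 (1.82). Pik3r1, a regulatory subunit of phosphatidylinositol 3-kinase, was higher by 1.31, the adaptor Irs1 by 1.16, the adaptor Grb10 by 1.11 and the growth hormone receptor Ghr by 1.01. The adaptor Grb14, which dampens insulin receptor signalling, was lower with a log2 ratio of -2.36 (107 CPM in VSMC-like and 22.1 CPM in fibroblast-like cells). The insulin receptor Insr had -1.27.

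VSMC2-like and VSMC1-like cells differed in 3 of the 7 IGF genes that reached 10 CPM. These are VSMC subtypes named by the study. Here the 2 largest VSMC subclusters were named by Tes and Ptprz1 against Enpep and Notch3, with 7768 VSMC1-like and 1686 VSMC2-like cells. Of 7653 genes, 5.06% were called, 2.80% higher and 2.26% lower in VSMC2-like cells. Igf1 and Igfbp5 were called higher and Igfbp2 lower.

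Igfbp2 had 53.2 to 172 CPM in VSMC1-like cells (median 112) and 16.6 to 52.0 CPM in VSMC2-like cells (median 28.5), which did not overlap. The log2 ratio was -3.26, -2.46 and -3.19 in libraries 1, 2 and 3, and -0.76, -1.07 and -0.51 in libraries 4, 5 and 6. The libraries thus fell on either side of the median of -1.77, which became -1.08 without library 1, 2 or 3 and -2.46 without library 4, 5 or 6. Igfbp5 had 38.8 to 108 CPM in VSMC2-like cells (median 75.1) and 8.94 to 44.5 CPM in VSMC1-like cells (median 17.4), a log2 ratio of 1.99 (1.28 to 2.74, 6 of 6 higher). Igf1 had medians of 27.6 and 9.52 CPM and a log2 ratio of 1.07 (0.613 to 1.998, 6 of 6 higher). Its call was lost without library 1, 2 or 3 (0.82) and without the cells with the highest doublet scores (0.61).

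Igfbp4 was higher in 6 of 6 libraries, with 251 to 452 CPM in VSMC2-like and 135 to 210 CPM in VSMC1-like cells, and its log2 ratio of 0.99 stood just under the threshold. It was called in 10 of 18 alternatives, among them without library 2, 4 or 5 (1.04) and without shared barcode sequences (1.02). Igf1r (0.26), Igf2r (0.23) and Igfbp7 (-0.16) were not called. Igfbp3 did not reach 10 CPM but had 2.55 to 42.7 CPM in VSMC2-like and 0.52 to 2.35 CPM in VSMC1-like cells. Fibroblast markers without collagens summed to 1150 CPM in VSMC2-like and 219 CPM in VSMC1-like cells, and 7.24% and 1.88% of the cells were among the 5% with the highest doublet scores. The fibroblast list includes Dcn, and the study reports higher Dcn and enriched cellular stress pathways in VSMC2 relative to VSMC1. Stress genes of tissue dissociation summed to 16824 and 10070 CPM. The part of these in the higher Igf1, Igfbp3, Igfbp4 and Igfbp5 was not tested beyond the alternatives, in which Igfbp5 kept its call without the highest doublet scores. Of 25 pathway genes tested, none was called higher and Htra3 was called lower (-2.30, 35.0 against 173 CPM). At the ends of the list stood Meg3 (0.64), Grb10 (0.42) and, on the lower side, Htra1 (-0.92), none of which was called.

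Endothelial-like cells were rich in Igfbp3 and held almost no Igfbp2, and most of their Igfbp5 UMIs came from 1 of 2 clusters. They were compared with VSMC-like cells in 5 libraries, since library 6 held 2 of them. Of 8499 genes, 30.0% were called, 18.2% higher and 11.8% lower. Among 9 IGF genes, Igf1, Igfbp3, Igfbp5 and Igfbp6 were called higher and Igfbp2 and Igfbp7 lower. Igfbp2, Igfbp3 and Igfbp6 again reached 10 CPM only through the class in which they were high, so the count is a description.

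Igfbp3 had 301, 266, 127, 477 and 558 CPM in endothelial-like cells of libraries 1 to 5, against 1.13 to 10.3 CPM in VSMC-like cells, with a median log2 ratio of 5.93 (5.10 to 7.98). Igfbp5 had 135, 844, 1433, 1916 and 2386 CPM and a log2 ratio of 5.09 (2.47 to 7.43). The endothelial-like cells fell into 2 clusters. The first (Ccl21a/Mmrn1/Nts) had 169 cells with 4345 Igfbp5 UMIs, and the second (Gpihbp1/Rbp7/Cd36) had 336 cells with 342. The cluster led by Ccl21a, Mmrn1 and Nts, of which the first pair are known genes of lymphatic endothelium, had 2303 and 6178 CPM of Igfbp5 in libraries 3 and 4, the only libraries with 20 such cells. The cluster led by Gpihbp1, Rbp7 and Cd36, genes of capillary endothelium, had 69.5 and 273 CPM in the same libraries and 32.8 to 273 CPM over 5. The gap is a description of 2 libraries, and fibroblast markers without collagens were at 1595 to 5693 CPM in the first cluster. In Igfbp7 the order was turned, with 340 to 1612 CPM in the first cluster and 4050 to 5583 CPM in the second.

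Igf1 had 31.9, 78.1, 165, 68.1 and 16.1 CPM in endothelial-like cells (log2 ratio 1.80, 1.16 to 2.86), and its call was lost with clustering of unintegrated data (0.71). Without the highest doublet scores its median was close to the main value (1.74), but 1 sign no longer held in every library. Igfbp6 had 3.54 to 186 CPM (log2 ratio 2.001, 0.48 to 4.69). Without library 1 or 2 its ratio was 3.14 and without library 4 or 5 it was 1.36, and clustering of unintegrated data (0.57) ended its call. Fibroblast markers without collagens summed to 276 to 4117 CPM in these cells, and the part of fibroblast RNA in Igf1 and Igfbp6 was not tested. Igfbp7 had 2561 to 4636 CPM (log2 ratio -1.02, -1.53 to -0.95, 5 of 5 lower), which became -0.98 without shared barcode sequences and was then not called. Igfbp4 (0.88, 5 of 5 higher) was not called, and was called without library 2 or 5 (1.02), library 3 (1.01) or shared barcode sequences (1.06). Only 3 Igfbp2 UMIs were found in endothelial-like cells, 0.985% of the VSMC level (exact interval 0.203 to 2.88%). Igf1r (-0.64) and Igf2r (-0.55) were not called.

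Of 27 pathway genes tested in endothelial-like cells, 3 were called higher and 6 lower, beside 18.2% and 11.8% of all 8499 genes. Stc1, another stanniocalcin, had 2.61, the growth inhibitor Cdkn1c 1.92 and Grb10 1.41. Grb14 had -4.11, Htra1 -3.11, Htra3 -2.93, the adaptor Irs2 -2.05, the kinase Akt2 -1.43 and the transcription factor Foxo3 -1.10. Leukocyte-like cells were not compared by this rule. They had 69.8 to 199 CPM of Igf1 (median 120), and 35.4% of them held an Igf1 UMI (31.0 to 40.1%). This was 27.5% of the fibroblast level (18.8 to 51.9%), whereas fibroblast markers without collagens stood at 4.29% (1.24 to 6.93%) of theirs. Macrophage genes (C1qb, C1qa and C1qc) led the cluster that held 407 of the 443 cells, and there Igf1 had a median of 122 CPM.

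Within the fibroblast-like cells Igfbp3 was highest in 1 subcluster and Igfbp6 in another in every library, while no subcluster was called for a receptor or Igfbp7. The cells were split into 10 subclusters, each named by 2 or 3 genes, and each was compared with the other fibroblast-like cells of its library. Of 81248 pairs of gene and subcluster, 4.51% were called, 1.73% higher and 2.78% lower. Of 80 pairs of the IGF genes, 13 were called (16.25%), 4 higher and 9 lower. Igfbp5 made 5 of these, Igfbp6 3, Igfbp3 and Igfbp4 2 each and Igf1 1.

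The subcluster led by Ptn, A730049H05Rik and Tmem215 (618 cells) had 783 to 2055 CPM of Igfbp3 (median 1054), against a median of 228 CPM in the other fibroblast-like cells. It had the highest Igfbp3 of the subclusters in 6 of 6 libraries (log2 ratio 2.52, 1.86 to 4.06). Igfbp5 was lower there (432 against 1104 CPM, log2 ratio -1.80). Igfbp7 was highest there in 6 of 6 libraries, with 10065 to 15055 CPM, although its log2 ratio did not pass the threshold. The Hhip/Dio2/Cpxm2 subcluster, the largest with 3873 cells, had the lower Igfbp3 (44.5 to 247 CPM, median 84.6, log2 ratio -1.79).

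Cells of the Ly6a/Spon2/Ccl11 subcluster (1831), whose genes are known from adventitial fibroblasts, had 722 to 1306 CPM of Igfbp6 (median 955), the highest in 6 of 6 libraries (log2 ratio 1.54, 1.35 to 2.36). Their Igfbp5 was also higher (1961 to 4479 CPM, median 2316, log2 ratio 1.42). The Pthlh/Cst6 subcluster had 1236 to 4288 CPM of Igfbp5 (median 2680, log2 ratio 1.05), a call that was lost without library 3, 4 or 6 (0.94). Igfbp4 was highest in the Ly6a/Spon2/Ccl11 subcluster in 4 of 6 libraries without a call.

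The Chad/Comp/Cilp2 and Coch/Wif1/Prss35 subclusters were poor in Igfbp4, Igfbp5 and Igfbp6. The first pair of genes of the Chad/Comp/Cilp2 subcluster are known from cartilage. In its 934 cells Igfbp6 had 13.1 to 100 CPM (median 29.0) against 384 CPM in the other cells (log2 ratio -3.69, -5.30 to -1.94). Igfbp5 had 90.6 to 451 CPM (log2 ratio -2.39), with -1.68 without library 1, 5 or 6 and -3.09 without library 2, 3 or 4. Igf1 (48.3 to 402 CPM, -1.21) and Igfbp4 (485 to 1258 CPM, -1.25) were lower too. Both of the latter calls were lost without library 1, 5 or 6 (-0.98 and -0.99). Endothelial markers, among them Emcn and Egfl7, summed to 275 CPM (221 to 703) in this subcluster, against medians of 12.35 to 161 CPM in the others, and their part was not tested. In the 806 cells of the Coch/Wif1/Prss35 subcluster Igfbp6 had 4.35 to 29.7 CPM (median 15.7, log2 ratio -4.68, -6.53 to -3.99). Igfbp4 (445 to 920 CPM, -1.77) and Igfbp5 (213 to 575 CPM, -1.87) were lower, whereas Igf1 stood at 333 to 776 CPM (median 595) and was highest of the subclusters in 3 of 6 libraries. Leukocyte markers, a list that includes Cd74, summed to 1495 CPM in this subcluster and to 12.6 to 55.7 CPM in the others, and their part was not tested.

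**Figure D3:**
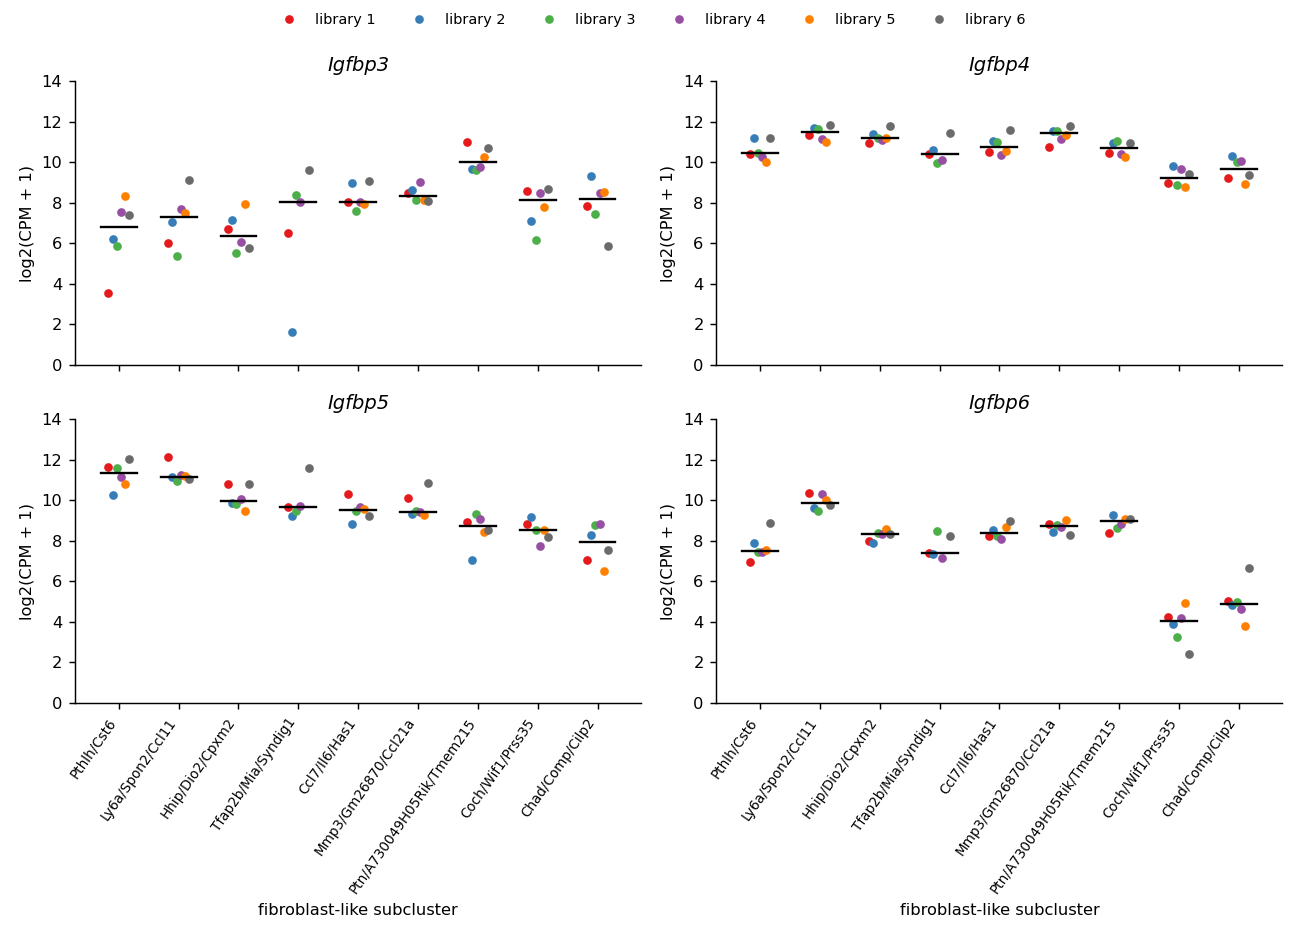
Igfbp3, Igfbp4, Igfbp5 and Igfbp6 as log2(CPM + 1) in the fibroblast-like subclusters named here, ordered by the median of Igfbp5, with 1 coloured point per library holding at least 20 cells of the subcluster and a black line at the median. Igfbp3 peaks in the Ptn/A730049H05Rik/Tmem215 subcluster (median 1054 CPM) and Igfbp6 in the Ly6a/Spon2/Ccl11 subcluster (median 955 CPM), and Igfbp6 is lowest in the Coch/Wif1/Prss35 and Chad/Comp/Cilp2 subclusters (medians 15.7 and 29.0 CPM).

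Of 296 pairs of pathway genes and fibroblast subclusters, 22 were called (7.43%, beside 4.51% of all pairs), 8 higher and 14 lower, in 10 of 32 genes. Among the calls, the protease Htra1 was higher in Hhip/Dio2/Cpxm2 (1.16) and Tfap2b/Mia/Syndig1 (1.57) and lower in Ccl7/Il6/Has1 (-1.17), Ly6a/Spon2/Ccl11 (-1.06) and Ptn/A730049H05Rik/Tmem215 (-1.02). Htra3 was higher in Ly6a/Spon2/Ccl11 (1.17) and lower in Coch/Wif1/Prss35 (-1.41). Stc2 was higher in Hhip/Dio2/Cpxm2 (1.55) and lower in Coch/Wif1/Prss35 (-3.53) and Tfap2b/Mia/Syndig1 (-1.96). Socs2, a suppressor of growth hormone signalling, was lower in Hhip/Dio2/Cpxm2 (-1.77) and Mmp3/Gm26870/Ccl21a (-1.01). Cdkn1c was higher in Ly6a/Spon2/Ccl11 (1.19) and lower in Pthlh/Cst6 (-1.08) and Coch/Wif1/Prss35 (-2.15). Grb10 was higher in Ly6a/Spon2/Ccl11 (1.41) and Grb14 in Chad/Comp/Cilp2 (1.66). Irs2 was higher in Ccl7/Il6/Has1 (1.21) and lower in Tfap2b/Mia/Syndig1 (-1.04), and Pik3r1 (-1.38) and Foxo1 (-1.07) were lower in Coch/Wif1/Prss35.

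Within the VSMC-like cells Igfbp2 was lower and Igfbp5 higher in the Pln/Pgam2/Olfr558 subcluster, the only subcluster called for both genes. In 9 subclusters, 2.51% of 69469 pairs were called, 0.967% higher and 1.55% lower. Of 60 pairs of the IGF genes, 9 were called (15%), 5 higher and 4 lower. Igf1 reached 10 CPM in 5 of the 9 subcluster comparisons and Igfbp3 in 1, and they gave 3 of the 5 higher calls, so this count too is a description. Igf1r, Igf2r and Igfbp7 were again called in no subcluster.

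The Pln/Pgam2/Olfr558 subcluster (572 cells) had 48.2, 2.76, 4.27, 15.01, 1.85 and 14.1 CPM of Igfbp2 in libraries 1 to 6 and was lowest in 4 of them. The log2 ratio was -3.89 (-5.51 to -1.59, 6 of 6 lower), with -2.39 without library 2, 3 or 5 and -5.39 without library 1, 4 or 6. Igfbp5 was higher there (45.4 to 145 CPM, median 92.2, log2 ratio 1.62, 1.02 to 2.73). The fibroblast markers without collagens summed to 123 CPM in this subcluster, below the other VSMC subclusters, 6 of which had 125 to 267 CPM. Stress genes of dissociation summed to 22628 CPM there, above each other VSMC subcluster (4205 to 20696 CPM) except Cxcl3/Il1b/Ccl4 (24489 CPM), and their part in the Igfbp2 and Igfbp5 values was not tested. Htra3 (-3.38) and Htra1 (-1.20) were lower.

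In the Fst/Chad/Colec11 subcluster (1243 cells), Igf1 (1.29 to 117 CPM, log2 ratio 1.61), Igfbp3 (3.21 to 62.1 CPM, 2.46) and Igfbp5 (33.7 to 106 CPM, 1.43) were higher. Igfbp3 entered the VSMC subcluster comparison only there, through its level in these cells, and without library 4 or the highest doublet scores it did not. The fibroblast markers without collagens summed to 1261 CPM in these cells, above all but 1 VSMC subcluster, and Igf1 lost its call without the highest doublet scores (1.29). An Igf1 UMI was seen in 9.33% of the Fst/Chad/Colec11 cells. The share was 2.27% in the Pln/Pgam2/Olfr558 cells and 4.58% in all VSMC-like cells. The Cd74/H2-Aa/H2-Ab1 subcluster (360 cells) had 52.9 to 118 CPM of Igf1 in the 5 libraries with 20 cells (log2 ratio 2.84) and 0 to 41.6 CPM of Igfbp2 (-1.83). Fibroblast markers without collagens (2179 CPM) and leukocyte markers (3815 CPM, Cd74 included) were highest there. The part of RNA from fibroblasts or leukocytes in these Igf1 values was not tested.

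The Des/Unc45b/Tnnt2 subcluster had the lower Igfbp5 (4.35 to 24.3 CPM, log2 ratio -1.33), and the Foxf1/Ncam1/Kcnc4 subcluster had the lower Igfbp4 (49.3 to 120 CPM, log2 ratio -1.25, lowest in 6 of 6 libraries). Of 234 pairs of pathway genes, 5 were called (2.14%, beside 2.51% of all pairs). Besides Htra1 and Htra3 in the Pln/Pgam2/Olfr558 subcluster, Irs2 was higher in Cxcl3/Il1b/Ccl4 (1.23), Meg3 was higher in Foxf1/Ncam1/Kcnc4 (1.06) and Htra3 was lower in Fst/Chad/Colec11 (-1.39).

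**Figure D4:**
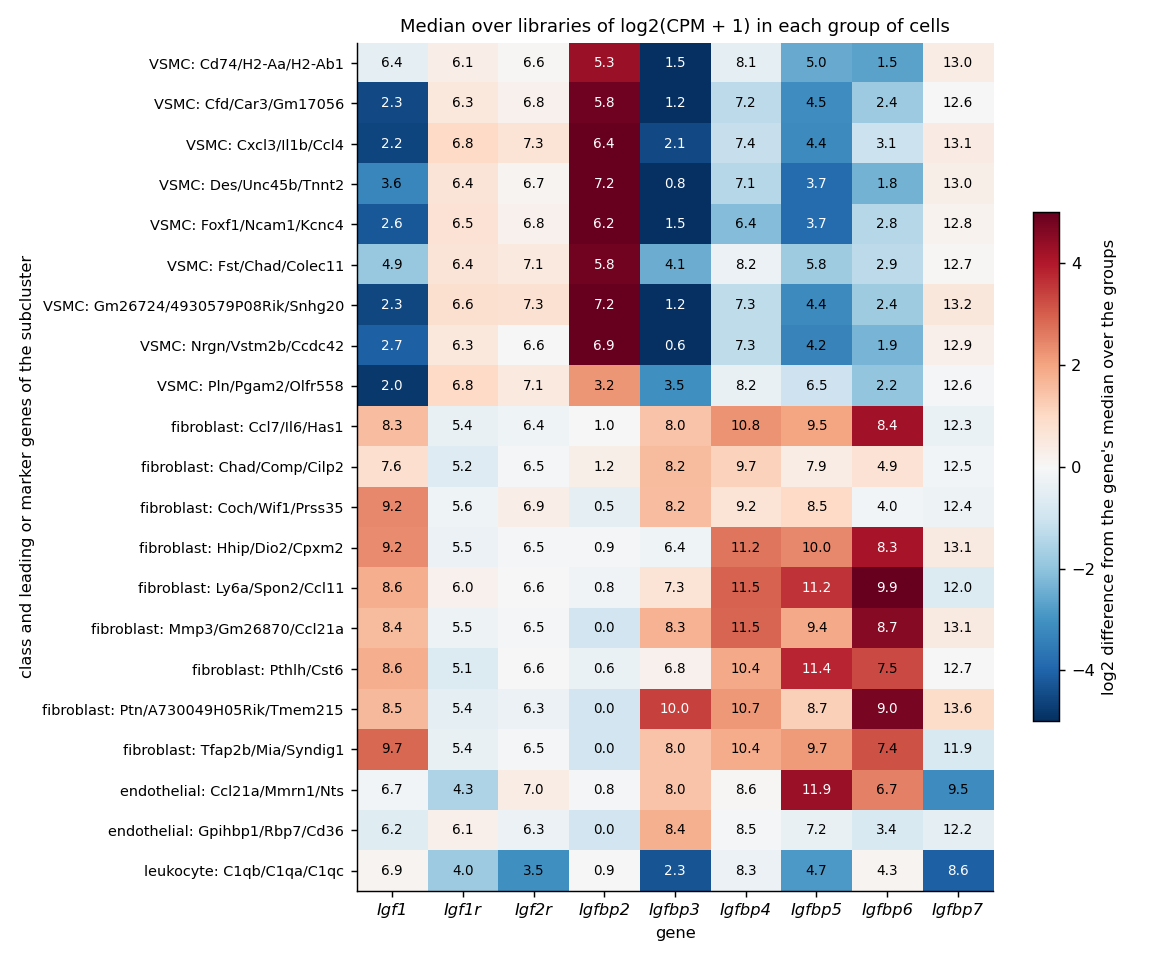
Median over libraries of log2(CPM + 1) of each gene in the groups of cells named here, printed in each cell, with colour for the difference from the gene's median over 22 groups. Igfbp2 is higher in each VSMC row, with the least in Pln/Pgam2/Olfr558 (3.2), than in any other row (at most 1.2). Igf1 and Igfbp4 are high in the fibroblast rows. Igfbp3 and Igfbp5 are high in most of them, less so Igfbp3 in Hhip/Dio2/Cpxm2 (6.4) and Igfbp5 in Chad/Comp/Cilp2 (7.9). Igfbp3 is also high in both endothelial rows (8.0 and 8.4). Igfbp6 is high in the fibroblast rows but Coch/Wif1/Prss35 and Chad/Comp/Cilp2.

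The Igfbp2 transcripts of VSMCs sat in few cells. Of 10078 VSMC-like cells, 88.5% held no Igfbp2 UMI, 1156 held at least 1, and 214 held 10 or more, with up to 154 in a cell. The 101 cells (1%) with the most Igfbp2 held 52.0% of its UMIs. Across the 7661 genes examined the median for this share was 9.98%, and 10 genes had a larger one than Igfbp2. Igf1r (6.61%), Igf2r (9.74%), Igfbp4 (12.6%) and Igfbp7 (4.52%) were spread far more evenly, and Igf1 (59.2%) and Igfbp5 (32.8%) were concentrated too. These shares were not compared at an equal level, and Igf1 had 1064 and Igfbp5 2387 UMIs beside 8317 of Igfbp2. Cells with 10 or more Igfbp2 UMIs were 3.30, 3.81, 3.25, 0.54, 1.38 and 2.22% of the VSMC-like cells in libraries 1 to 6 and held 76.2, 75.9, 80.3, 39.1, 61.2 and 52.2% of the Igfbp2 UMIs. They occurred in each subcluster, from 1 of 572 cells in Pln/Pgam2/Olfr558 (0.175%) to 43 of 926 in Des/Unc45b/Tnnt2 (4.64%). The cut of 10 UMIs was not adjusted for depth, which differed between libraries and subclusters. Median depth was 8949.5 UMIs in Des/Unc45b/Tnnt2, 7304.5 in Pln/Pgam2/Olfr558 and 4592.5 in Gm26724/4930579P08Rik/Snhg20. At the equal depth used for Igf1 above, 12.1, 1.80 and 11.7% of their cells held at least 1 Igfbp2 UMI. A share of 11.5% of VSMC-like cells held an Igfbp2 UMI (10.9 to 12.1%), against 0.526% of fibroblast-like, 0.594% of endothelial-like and 1.58% of leukocyte-like cells, at median depths of 7174.5, 6078.5, 4590 and 5620 UMIs. In leukocyte-like cells of library 1, 13 Igfbp2 UMIs gave 59.7 CPM, 41.5% of the VSMC level, while the VSMC markers of leukocyte-like cells were at most 5.86% of theirs. The part of free RNA in the shares outside VSMCs was not tested.

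**Figure D5:**
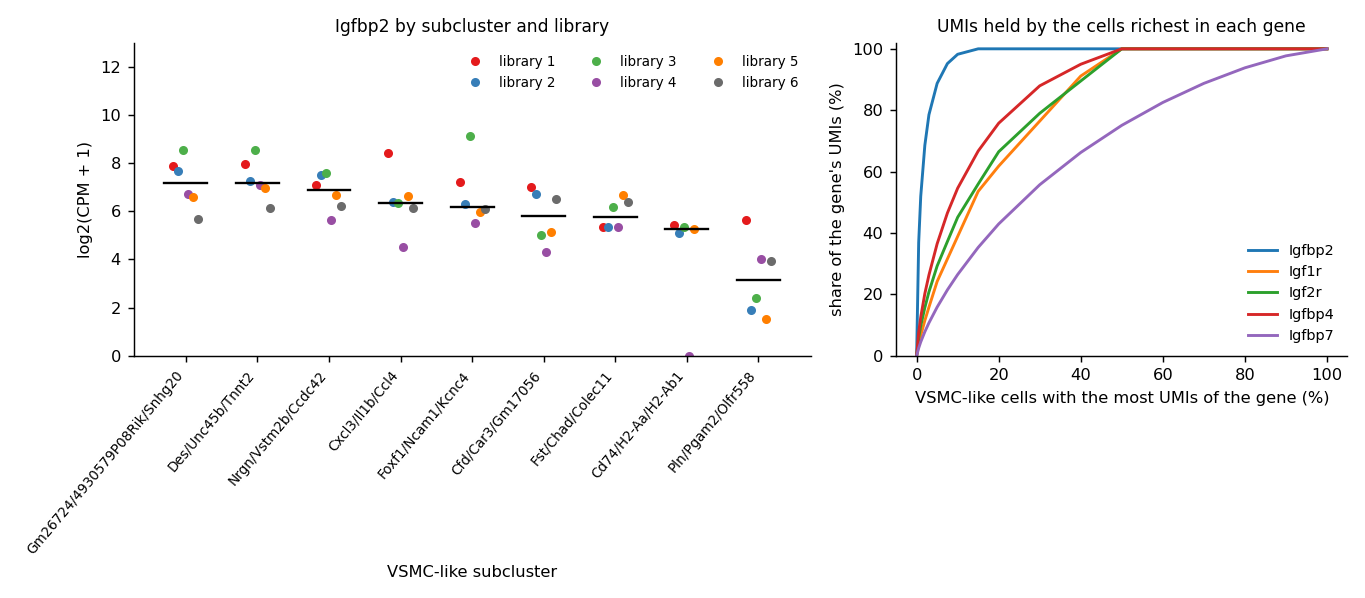
Left, Igfbp2 as log2(CPM + 1) in the VSMC-like subclusters ordered by median, with 1 coloured point per library holding at least 20 cells and a black line at the median. Right, share of the UMIs of each gene (%) held by the VSMC-like cells richest in it (%), where the steep Igfbp2 curve passes 52.0% at 1% of the cells and the Igfbp7 curve is the flattest.

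Genes with the pattern most like each member were ranked by Pearson's r of log2(CPM + 1) over the 22 groups of cells, among 11236 genes. The groups share libraries and their depth, so r is a description. For Igfbp2 these were Il17b (0.98), Ihh (0.98) and 9230112J17Rik (0.98). For Igf1 they were Anpep (0.96), Ier3ip1 (0.95) and Bace2 (0.94), for Igfbp3 Mest (0.96), Snai1 (0.95) and Sept11 (0.95), and for Igfbp5 Gprc5b (0.96), Mtx2 (0.95) and Lbp (0.94). Igfbp4 and Igfbp6 shared Clec3b (0.96 and 0.97) and Abca8a (0.96 and 0.96), next to Bicc1 (0.96) and Bcat1 (0.96). Igf1r was nearest to Fam13c (0.94), Echs1 (0.94) and Klhl7 (0.93), Igf2r to Dmwd (0.97), Tead1 (0.96) and Cuedc1 (0.94), and Igfbp7 to Runx1t1 (0.94), Jam3 (0.94) and Six5 (0.92). Among the members, Igfbp4 and Igfbp6 were most alike (0.91), Igf1 stood nearest to Igfbp4 (0.88) and was opposite to Igfbp2 (-0.87), and Igf1r stood nearest to Igfbp2 (0.72). Igfbp2 and Igfbp5, the chromosome 1 neighbours printed above, had -0.84. Igfbp2 was also opposite to Igfbp3 (-0.90), Igfbp4 (-0.82) and Igfbp6 (-0.79), which lie on other chromosomes.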

How the data were processed

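By the labels and the study's methods, living nucleated cells of the proximal aorta were sorted, loaded 1 mouse per 10x 3′ v3 library and sequenced on a NovaSeq. The authors deposited 1 aggregated matrix of counts (unnormalized UMIs per gene and cell). Its header names Cell Ranger 4.0.0, while the processing notes and methods name Cell Ranger 6, with mm10. Reads without a unique gene are not counted, which lowers genes that overlap another on the same strand. Cells with above 1000 and below 5000 genes, above 1500 and below 25000 UMIs and below 20% mitochondrial UMIs were kept, as in the study's methods.

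Each library was normalised with SCTransform and the libraries were integrated by reciprocal principal component analysis in Seurat 5.3.0 (sctransform 0.4.2, R 4.3.3), with 3000 variable genes, 30 components and a resolution of 0.25. Subclusters used 0.4. Before clustering, 27 of the variable genes that were IGF or pathway genes were left out for the classes, 26 for VSMCs and 29 for fibroblasts. Clusters were named from marker lists, and subclusters with markers of another list were set aside. Doublets were not removed, but the 5% of cells with the highest scanpy 1.11.5 scores were left out in an alternative. The planned rule for VSMC1 and VSMC2, exactly 2 subclusters of at least 5% of cells, was met at no resolution. The 2 largest subclusters at 0.05 were used, and the other, led by Rgs5, was left out. Subclusters themselves are a description, since other genes of the same cells formed them.

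UMIs were summed per library and group with Python 3.11.15, numpy 2.4.6, pandas 2.3.3 and scipy 1.17.1. For log2 ratios 0.5 UMI, scaled to each total, was added, groups needed 20 cells in a library, and genes needed a mean of 10 CPM over both groups. No library could be matched to a labelled mouse, so the planned comparison of LDS with control was not run, and no p-value was computed. The 10 members are named in every comparison. Of 43 pathway genes, those called were named with the 2 highest and 2 lowest of each comparison, and 3 genes of like pattern per member. Members and lists were chosen with earlier results of these data known. A pathway gene and a fibroblast subcluster are counted but not reported here. The scripts were tested on simulated data. Alternatives changed the scaling, the prior, the CPM minimum, the summing, the clustering and its resolution, left out each library or the highest doublet scores and, added after seeing the data, left out shared barcode sequences, split the libraries into the sets that share them and kept mixed subclusters.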

Additional observations from a re-analysis of the deposited data

Results flagged for a closer look

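In 34 sets of values over the 6 libraries, the library farthest from the others was compared with Dixon's critical value for 6 samples, which chance passes in about 1 set in 20. Of these, 5 sets passed. Igfbp3 in fibroblast-like cells was 126 CPM in library 3 and 243 to 289 CPM in the others. Igfbp6 in fibroblast-like cells was 458 CPM in library 5 and 345 to 374 CPM in the others. Igfbp7 in VSMC-like cells was 9139 CPM in library 2 and 6816 to 7634 CPM in the others. Igfbp7 in fibroblast-like cells was 8728 CPM in library 1 and 5980 to 6897 CPM in the others. The log2 ratio of Igfbp2 for fibroblast-like over VSMC-like cells was -4.80 in library 4 and -7.12 to -6.34 in the others. The 5 values fall in 5 different libraries.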

How the results depend on the processing

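No paired analysis was possible because libraries could not be matched to labelled mice. This concerns the genotypes, since the ratios between cell groups were each taken within a library. Of 88 counts or percents of members called under alternatives, 80 stayed within 1.5 times the reported value. For VSMC2-like over VSMC1-like cells, the 3 members called became 1 with at least 50 CPM, where fewer genes are tested, and 6 with mixed subclusters kept, a choice made after seeing the data. For fibroblast subclusters the 16.25% of pairs called became 25% in libraries 2 and 6 alone, also chosen after seeing the data, where 2 libraries need to share a direction. For VSMC subclusters the 15% became 8.70% with at least 50 CPM, 25% in libraries 1, 3, 4 and 5, 24.4% at a resolution of 0.2 and 27.4% with mixed subclusters kept. Leaving out each library in turn gave 14.04 to 23.4%, the highest without library 6. The cause of these moves was not tested where none is given. Of 762 values of single members, 16 moved by more than the spread between libraries and 0 reversed. Of 37 calls, 24 held in every alternative applied to them and 13 were lost in at least 1, in some because the gene was no longer tested. Calls in single subclusters were checked only in alternatives that kept the same subclusters. Other resolutions and kept mixed subclusters were not applied to these calls. In fibroblast-like over VSMC-like cells, clustering of unintegrated data lowered Igfbp3 to 4.03 and moved Igfbp2 to -5.11, both still called. Depth limits Igf2 (24 UMIs), Igfbp2 outside VSMCs and endothelial values, which rest on 505 cells.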

Other observations

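Some levels fell outside the comparisons. The binding proteins of leukocyte-like cells summed to 504 to 1584 CPM, and Igfbp4 was 34.0% of the sum (12.46 to 62.3%), with Igfbp7 at 50.6%. Igfbp2 was 0 in leukocyte-like cells of 3 libraries and 59.7 CPM in library 1, where 35 such cells were kept. In fibroblast-like cells the UMIs of Igf1 were spread more evenly than in VSMC-like cells, with 9.16% of them in the richest 1% of cells against 59.2%. The totals differed as well, with 41190 Igf1 UMIs in fibroblast-like and 1064 in VSMC-like cells. The shares were not compared at an equal level. Igfbp3 was the most concentrated binding protein of fibroblast-like cells, with 30.5% of its UMIs in 131 cells against a median of 12.04% over 8108 genes. Among VSMC subclusters, Igfbp4 was highest in Pln/Pgam2/Olfr558 in 4 of 6 libraries (229 to 501 CPM). Igf1os, an antisense neighbour of Igf1, had 12 UMIs in all kept cells.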
